A study of Mus musculus with 8 samples.

Results

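The results describe 36 genes of the peroxisome and of fatty acid oxidation in the mouse testis, taken from the table by name and by the known role of their products. They fall into 3 groups that were kept apart: 12 peroxins, 9 peroxisomal oxidation genes and 15 mitochondrial oxidation genes. All 36 were among the 17127 genes of the table, and all were among the 17126 genes tested. RNA of whole adult testis was sequenced from wild-type mice (labelled WT) and from homozygous Iqch mutants (labelled Iqch-/-), 1 library per mouse, at 4 months of age. The study made 2 mutant lines with CRISPR-Cas9 in B6CBAF1 zygotes, Iqchmu5 and Iqchmu7, each with a frameshift deletion in the same exon of Iqch. Where it shows the RNA-seq coverage of Iqch it names the mutant data as Iqchmu7, and the labels of the libraries give no line. The libraries of 4 wild-type mice and of mutants 1, 2 and 4 were used, and mutant 3 had no values to analyse. The study considered a mutant sample to be an outlier and excluded it after normalization, and its text does not name the sample. Mutant 3 is the only mutant without values here. The spread between mutants, and the standard errors, p-values and overlaps that rest on it, thus describe a group without mutant 3.

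Peroxisomes are small organelles bounded by a single membrane, and peroxins are the proteins that build them: they insert membrane proteins, bind and import matrix enzymes, recycle the import receptors and divide the organelle. Inside, very long, branched and bile acid side chains are shortened by a beta-oxidation whose first step passes electrons to oxygen and makes hydrogen peroxide. Mitochondria oxidise the more common long, medium and short chains after the carnitine shuttle has brought them in, and hand the electrons to the respiratory chain. In the testis, Leydig cells draw on lipid to make steroids, Sertoli cells degrade the lipid of residual bodies, and germ cells contain peroxisomes and specialised mitochondria.

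Values are CPM, the reads of a gene scaled to a common total over the genes of the table, and the depth was 32064384 to 37551057 reads per library if the smallest step of a library's values is taken as 1 read. Fold changes are mutant against wild type on the log2(CPM + 0.1) scale, and a gene was called at an FDR below 0.01 by limma with Benjamini-Hochberg adjustment over all tested genes. Of all tested genes, 50.4% were called. The targeted gene was lower in every mutant: Iqch had 217, 206, 216 and 193 CPM in wild-type mice 1 to 4 and 67.7, 64.8 and 69.2 CPM in mutants 1, 2 and 4 (log2 fold change of −1.63 ± 0.05 SE). The tested genes as a whole had a median log2 fold change of 0.12 with CPM as deposited, and of −0.01 once median-of-ratios size factors were applied, so changes within about this distance of 0 depend on the scaling and are given on both scales where it matters. Whether each library came from a mouse of another litter or day is not stated, so p-values measure the spread between these mice only.

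Of the 36 genes, 25 were called higher in the mutants and 0 were called lower, where 36.3% of all tested genes were called higher and 14.2% lower. All but 4 had a positive log2 fold change, as did 10614 of all 17126 tested genes. The median was 0.72, against 0.12 for all tested genes. Of the 36, Ehhadh reached the minimum level for testing through the mutants only, and without it 24 of 35 were called higher, with a median of 0.60. In 13 of the 36 the rise was more than 2-fold, a share that was 8.79% among all tested genes. After size factors 24 were called higher and 2 lower (27.0% and 25.1% of all tested genes), with a median of 0.59. In whole testis, a changed share of a cell type and a changed amount of RNA per cell cannot be told apart. The levels of cell type markers are given after the members. The enzymes of both organelles had higher medians than the peroxins. The median log2 fold change was 1.15 for peroxisomal oxidation, 0.98 for mitochondrial oxidation and 0.27 for peroxins, and the differences between these medians were not tested. On the negative side, Pex3 had an unadjusted p of 0.00515 by limma, and Pex16, Cpt1b and Pex13 had 0.0677, 0.282 and 0.942.

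**Figure D1:**
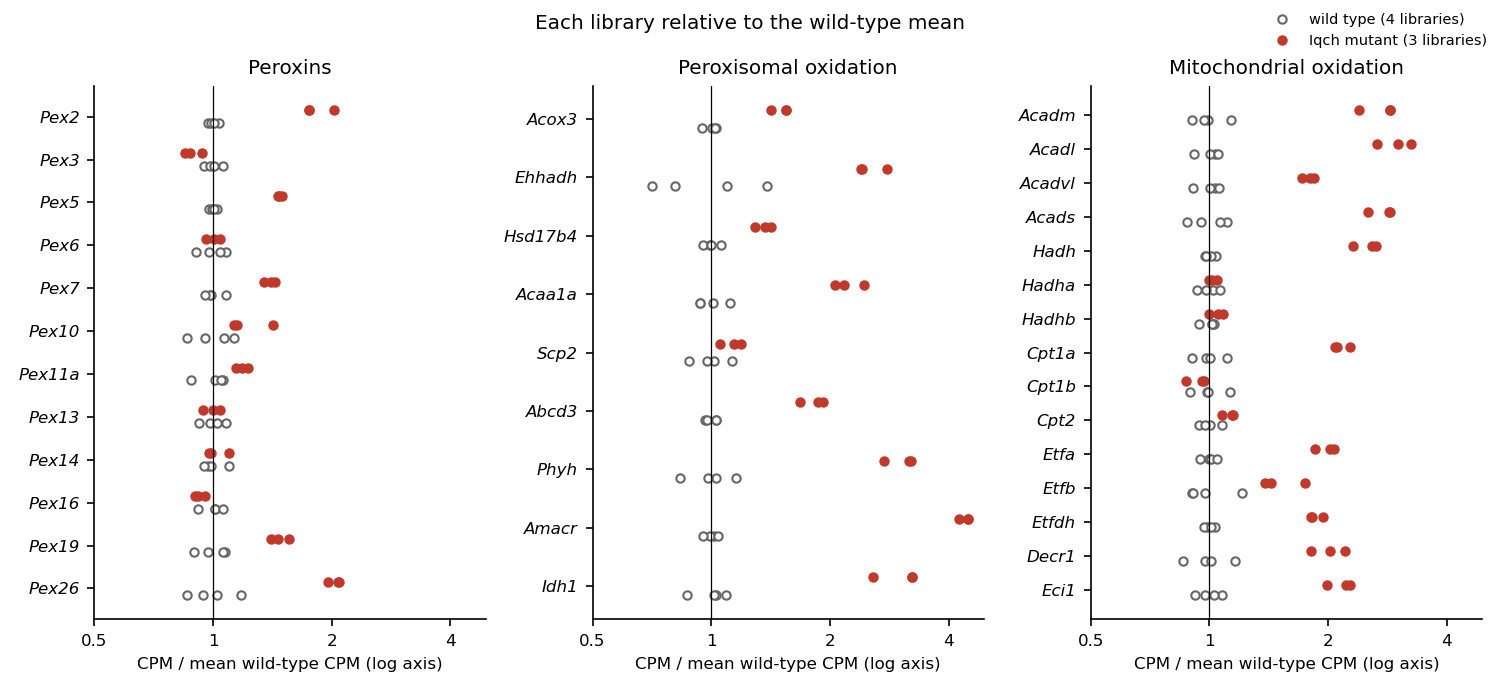
CPM of each library divided by the wild-type mean of the same gene (log axis), for the 36 genes in their 3 groups, with 4 wild-type libraries as open circles and 3 Iqch mutant libraries as filled circles. For 26 of the 36 genes every mutant lies to the right of every wild type, and for Pex3 every mutant lies to the left.

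In 26 of the 36 genes every mutant library lay above every wild-type library, against 42.8% of all tested genes. In 1 gene, Pex3, every mutant lay below every wild type, against 19.5% of all tested genes. In the plot of libraries relative to the wild-type mean, the 3 mutants sat close together for most genes. Mutant 3 is not among them. The wild types of Ehhadh were spread most widely relative to their mean.

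Among the peroxins, 6 of 12 were called higher and 0 lower, beside 36.3% and 14.2% of all tested genes. After size factors the counts were 5 and 2, beside 27.0% and 25.1%. The import machinery is described first, from receptors to recycling. Pex5, the receptor for enzymes with a carboxy-terminal targeting signal, had 50.4, 48.3, 49.0 and 49.7 CPM in the wild types and 72.3, 73.9 and 72.0 CPM in the mutants. The groups were far apart relative to their spread, with a log2 fold change of 0.56 ± 0.05 (SE) and an FDR of 3.9e-07. Pex7, the receptor for the amino-terminal signal that thiolase and Phyh carry, had 16.7, 16.6, 18.3 and 16.1 CPM against 22.8, 24.3 and 23.8 CPM (log2 fold change of 0.48 ± 0.07). The ratio of Pex5 to Pex7 within a library was 2.92 ± 0.176 (SD, n = 4) in wild types and 3.08 ± 0.0814 (SD, n = 3) in mutants, with overlapping groups.

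The docking proteins at the membrane, to which the loaded receptors bind, did not follow. Pex13 had 102, 106, 112 and 95.5 CPM in the wild types and 98.1, 108 and 104 CPM in the mutants, with overlapping groups and a 95% interval of the log2 fold change from −0.13 to 0.12. Pex14 had 22.2 to 25.6 CPM in the wild types and 22.8 to 25.6 CPM in the mutants, with an interval from −0.12 to 0.19. Both intervals leave out the rise measured for the receptors. On the other strand, Gm17029 shares 25.5% of the exon bases of Pex14, and Pus10 shares 7.75% of those of Pex13. With the strand setting of the counting not stated, the levels of both docking genes are less certain.

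Of the 2 ubiquitin ligase subunits listed, which mark the receptor for export, Pex2 was called higher and Pex10 was not. Pex2 had 12.3, 13.1, 12.5 and 12.7 CPM in the wild types and 22.1, 22.1 and 25.6 CPM in the mutants (log2 fold change of 0.87 ± 0.08, FDR of 7.4e-07). Pex10 had 4.50 to 5.92 CPM against 5.95, 6.05 and 7.46 CPM, so its groups did not overlap, but its FDR was 0.0579. Export itself is driven by an ATPase complex that contains Pex6 and that the anchor Pex26 holds at the membrane. Pex26 had 10.9, 9.90, 11.8 and 13.6 CPM in the wild types and 23.9, 22.6 and 24.1 CPM in the mutants, and it had the greatest rise of the 12 peroxins at 1.03 ± 0.10. Pex6 differed from its anchor: it had 73.7 to 87.8 CPM in the wild types and 78.3 to 84.9 CPM in the mutants, with an interval from −0.13 to 0.14. Pex6 shares 297 exon bases with Gnmt on the other strand, which rose from 2.19 to 7.39 CPM, and the strand setting of the counting is not stated.

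Pex3, Pex16 and Pex19 together place proteins in the peroxisomal membrane. Pex19, the soluble carrier, had 37.7, 41.7, 34.8 and 41.2 CPM in the wild types and 54.6, 60.5 and 56.8 CPM in the mutants (log2 fold change of 0.56 ± 0.07, FDR of 1.5e-05). Pex3, the membrane receptor of that carrier, had 92.4, 103, 95.5 and 97.9 CPM against 84.8, 82.7 and 90.9 CPM. Every mutant was below every wild type, yet the FDR of 0.0102 missed the threshold at a log2 fold change of −0.17 ± 0.05. After size factors Pex3 was called lower at −0.31 (FDR of 1.9e-04). It was also called lower without wild type 1 (−0.20) or without mutant 4 (−0.21). Pex16 had 43.9 to 50.8 CPM against 43.1 to 45.5 CPM, with overlapping groups, and it was called lower only after size factors or TMM factors (−0.25 and −0.26).

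The ratio of Pex3 to Pex19 within a library does not depend on how libraries are scaled. It was 2.45, 2.47, 2.74 and 2.37 in the wild types and 1.55, 1.37 and 1.6 in the mutants, with no overlap. The ratios of gene pairs were chosen after the values of their genes were seen and are given as descriptions, with no test. Pex11a, a protein of peroxisome growth and division, had 30.7, 29.2, 30.4 and 25.5 CPM against 34.2, 33.0 and 35.4 CPM. It was called by a narrow margin at 0.24 ± 0.07 (FDR of 0.00967). The call was lost after size factors (0.11) and without any of wild types 2 (0.25) and 4 (0.18) and mutants 1 (0.24), 2 (0.27) and 4 (0.22).

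**Figure D2:**
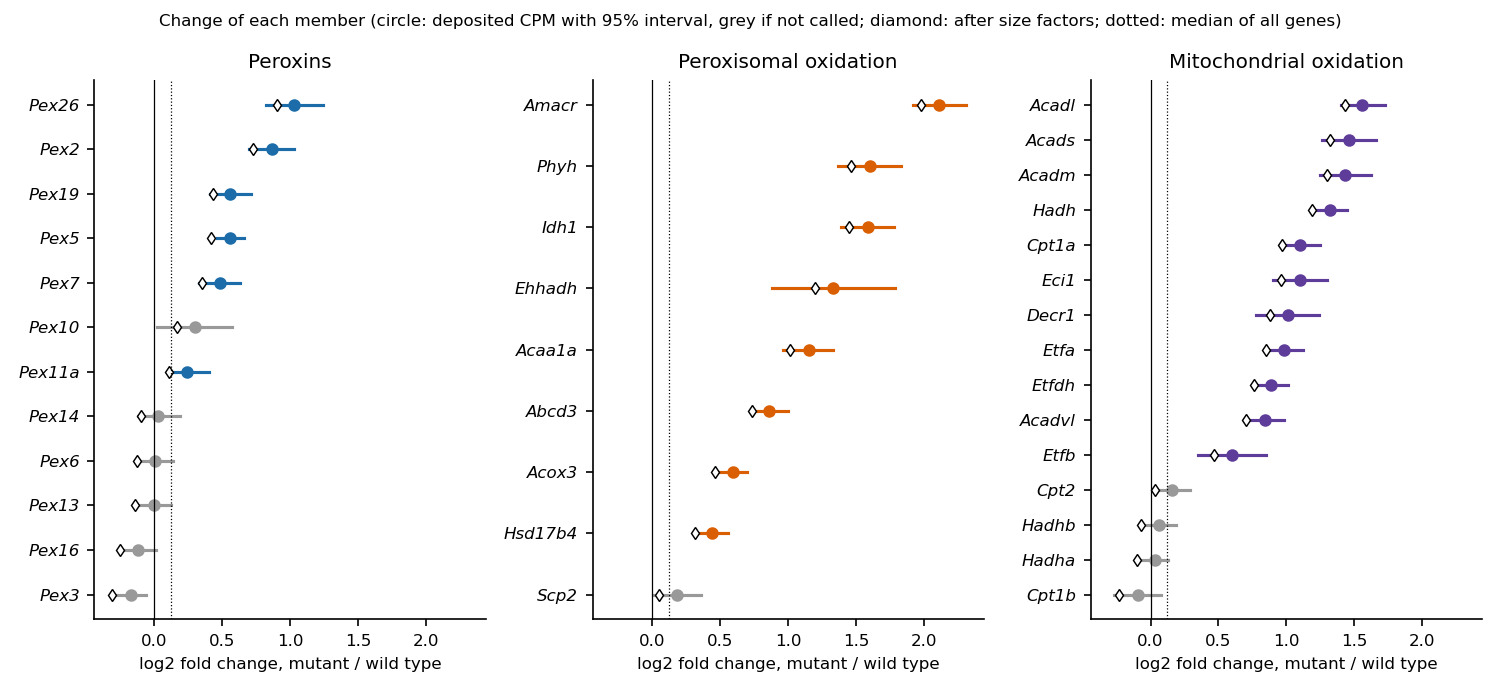
Log2 fold change of mutant against wild type for each gene (circles, with the 95% interval from limma; grey where not called), the same after median-of-ratios size factors (diamonds), and the median of all tested genes at 0.12 (dotted line). Peroxins run from −0.17 (Pex3) to 1.03 (Pex26), peroxisomal oxidation genes from 0.18 (Scp2) to 2.11 (Amacr) and mitochondrial oxidation genes from −0.09 (Cpt1b) to 1.56 (Acadl).

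Of the 9 peroxisomal oxidation genes, 8 were called higher and 0 lower, beside 36.3% and 14.2% of all tested genes. All 9 had a positive log2 fold change, as did 10614 of all 17126 tested genes. The greatest rise was that of Amacr, the racemase that turns branched-chain and bile acid CoA esters into the form that the oxidases accept. Amacr (ENSMUSG00000022244, chromosome 15, 10981827 to 10996712, plus strand, GRCm39) had 4.13, 4.02, 4.23 and 3.86 CPM in the wild types and 17.3, 18.2 and 18.2 CPM in the mutants. The groups differed 4.41-fold with little spread in either, and the log2 fold change was 2.11 ± 0.09 (FDR of 2.0e-09). Phyh, the hydroxylase that begins the alpha-oxidation of phytanic acid, had 9.99, 7.17, 8.86 and 8.47 CPM against 23.6, 27.3 and 27.7 CPM, a log2 fold change of 1.6 ± 0.11. Abcd3, a transporter that brings branched-chain and bile acid CoA esters into the peroxisome, had 23.7, 24.1, 25.4 and 25.4 CPM against 41.5, 47.3 and 46.0 CPM, a log2 fold change of 0.86 ± 0.06.

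The steps of the cycle itself were called higher from the oxidase to the thiolase, with unequal size. Acox3, an oxidase of branched chains, rose from 67.2 ± 2.34 CPM (SD, n = 4) to 101 ± 5 CPM (SD, n = 3), a log2 fold change of 0.59. The next steps are carried out by 2 bifunctional enzymes. Ehhadh had 1.2, 1.86, 1.37 and 2.34 CPM in the wild types and 4.05, 4.09 and 4.73 CPM in the mutants (1.33 ± 0.21). Its wild-type values were at most 2.34 CPM and only 1 of them reached the minimum of 2.2 CPM, so Ehhadh entered the test through the mutant group and could not have been found to fall. Without it, 7 of 8 were called higher. Hsd17b4, which handles branched and bile acid chains, had 43.3 to 48.3 CPM against 58.7, 62.4 and 64.5 CPM, a smaller log2 fold change of 0.44 ± 0.06.

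For the closing thiolase step, Acaa1a had 12.8, 13.8, 12.8 and 15.3 CPM in the wild types and 29.7, 33.4 and 28.2 CPM in the mutants (log2 fold change of 1.15 ± 0.08, FDR of 1.9e-07). Scp2, whose long product is the thiolase for branched chains and whose short product binds sterols, had 30, 33.4, 25.9 and 28.8 CPM against 31.1, 35.2 and 33.8 CPM. Its groups overlapped and it was not called (0.18 ± 0.08, FDR of 0.0706). Scp2-ps2, a pseudogene of Scp2, has a row of its own in the table, and how the counting divided reads between the copies is not stated. Idh1, which makes NADPH in the cytosol and in peroxisomes, was the most abundant of the 9 in the mutants per kb of exon, at 23.2 CPM per kb against 7.70 in the wild types. It had 44.6, 52.8, 52.1 and 55.9 CPM in the wild types and 132, 166 and 166 CPM in the mutants, where mutant 1 was the lowest of the 3 but still above every wild type.

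Of the 15 mitochondrial oxidation genes, 11 were called higher and 0 lower, beside 36.3% and 14.2% of all tested genes. The other 4 were Cpt1b, Cpt2, Hadha and Hadhb. The chain-length dehydrogenases that open each round of beta-oxidation all rose. Acadl, the long-chain enzyme, had 17.7, 20, 19.5 and 20.4 CPM in the wild types and 51.6, 58.4 and 62.9 CPM in the mutants, the greatest rise of the 15 at 1.56 ± 0.08 (FDR of 6.9e-09). Acads, the short-chain enzyme, had 10.7, 10.3, 9.19 and 8.47 CPM against 27.7, 27.6 and 24.4 CPM (1.46 ± 0.09). Acadm, the medium-chain enzyme, had 20.6, 18.8, 23.6 and 20.1 CPM against 49.8, 59.8 and 59.5 CPM (1.43 ± 0.09).

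Acadvl, the very-long-chain enzyme, had a smaller change than these 3, with 18.3, 17.8, 16.1 and 18.8 CPM against 31.9, 30.5 and 32.7 CPM and a log2 fold change of 0.84 ± 0.07. On the other strand, exons of Dvl2 cover 38.2% of the exon bases of Acadvl, and Dvl2 rose by less (0.24). The electron carriers that serve all of these dehydrogenases rose too. Etfa, the alpha subunit of the electron transfer flavoprotein, had 20.2, 19.1, 20.4 and 21.1 CPM against 37.5, 40.9 and 41.9 CPM, and its log2 fold change was 0.98 ± 0.06. Etfb, the beta subunit, had 13.3, 10.7, 9.92 and 10 CPM against 15.7, 15.2 and 19.2 CPM, and its log2 fold change was 0.60 ± 0.12. The ratio of Etfa to Etfb was 1.52, 1.79, 2.06 and 2.11 in the wild types and 2.39, 2.69 and 2.18 in the mutants, so that every mutant lay above every wild type, though mutant 4 by little. The annotated gene Etfbl, on the same strand, shares 39.6% of the exon bases of Etfb, so the level of Etfb is uncertain. Etfdh, which passes the electrons to ubiquinone, rose from 22.4 ± 0.587 CPM (SD, n = 4) to 41.5 ± 1.52 CPM (SD, n = 3).

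The auxiliary enzymes for unsaturated chains also rose. Decr1, the dienoyl-CoA reductase, had 8.14, 11, 9.22 and 9.56 CPM in the wild types and 17.2, 19.2 and 20.9 CPM in the mutants (1.01 ± 0.11). Eci1, the enoyl-CoA isomerase, had 7.21, 6.90, 6.18 and 6.52 CPM against 13.3, 14.9 and 15.2 CPM (1.10 ± 0.09). Neither gene had a mutant library within the range of the wild types.

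At the entry of the pathway, the 2 forms of carnitine palmitoyltransferase I on the outer membrane went apart. Cpt1a, the form known from liver, had 45.5, 46.5, 41.8 and 51.3 CPM in the wild types and 105, 96.2 and 97.4 CPM in the mutants (1.10 ± 0.07, FDR of 3.1e-08). Cpt1b, the form known from muscle, had 23.2, 26.6, 21.1 and 23.4 CPM against 22.9, 20.6 and 22.6 CPM. Its groups overlapped, with a 95% interval from −0.27 to 0.08. The ratio of Cpt1a to Cpt1b was 1.97, 1.75, 1.99 and 2.2 in the wild types and 4.58, 4.66 and 4.31 in the mutants, with no overlap. The annotated gene Gm44502, on the same strand, shares 68.5% of the exon bases of Cpt1b, so reads of Cpt1b may have been left out or divided. Cpt2, the inner membrane enzyme of the shuttle, had 61.1, 53.5, 57.0 and 55.3 CPM against 60.9, 64.7 and 65.1 CPM, with an FDR of 0.0199. Without wild type 1, Cpt2 was called higher at 0.20 (FDR of 0.00739).

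**Figure D3:**
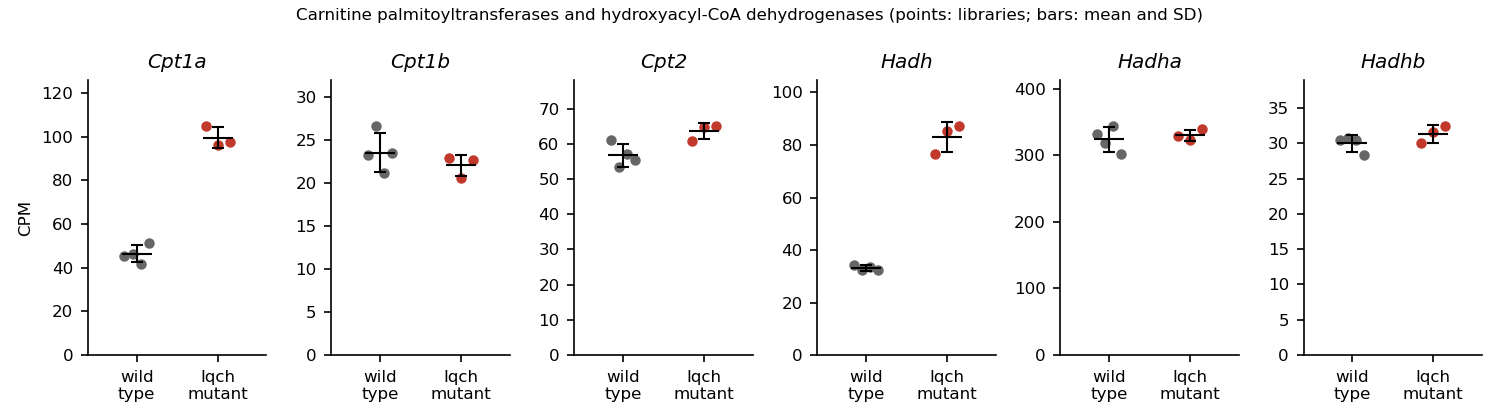
CPM in each library (points) with mean and SD (bars) for Cpt1a, Cpt1b, Cpt2, Hadh, Hadha and Hadhb in 4 wild-type and 3 Iqch mutant mice, each axis starting at 0. Cpt1a and Hadh separate the groups, whereas the mutants of Cpt1b, Cpt2, Hadha and Hadhb overlap the wild types.

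The later steps of the long-chain spiral are carried out by the mitochondrial trifunctional protein, with alpha subunits from Hadha and beta subunits from Hadhb, and the third step for shorter chains by Hadh. Hadh had 34.3, 32.2, 33.4 and 32.4 CPM in the wild types and 76.5, 85.4 and 87.3 CPM in the mutants, a log2 fold change of 1.32 ± 0.06 (FDR of 2.8e-09). Hadha had 331, 318, 344 and 301 CPM in the wild types and 329, 323 and 339 CPM in the mutants. Hadhb had 30.5, 30.8, 30.5 and 28.3 CPM against 30, 31.6 and 32.5 CPM. Both subunits thus overlapped between the groups. The 95% interval ran from −0.07 to 0.13 for Hadha and from −0.06 to 0.19 for Hadhb, well below the change of Hadh. After size factors both fold changes turned slightly negative, at −0.10 and −0.07, and neither was called.

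Hadha had the highest level of the 36 genes in wild types, at 33.9 CPM per kb of merged exons, whereas Hadhb had 1.91. Per kb of the canonical transcript the levels were 80.1 and 14.8. Within a library Hadha was 10.3 to 11.3 times Hadhb in the wild types and 10.2 to 11 times in the mutants, so these ranges overlapped. The level of Hadhb is uncertain because Hadhb-ps, a pseudogene of Hadhb, is also in the table. Hadha shares 21.3% of its exon bases with Garem2 on the other strand.

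Hadha and Hadhb lie head to head on chromosome 5. In GENCODE on GRCm39, Hadha (ENSMUSG00000025745) runs from 30323302 to 30360187 on the minus strand and Hadhb (ENSMUSG00000059447) from 30359204 to 30389997 on the plus strand, and their exons share 932 bases. In RefSeq on GRCm38.p6 272 bases lie between their start sites. The stretch that both promoter windows (250 bases before to 50 after the start) share is shown because these neighbours were the members of the long-chain spiral whose groups overlapped. It is written on the strand of Hadhb, at chr5:30155003-30155230, with a GC box (GGGCGG) in capitals.
Hadhb and Hadha: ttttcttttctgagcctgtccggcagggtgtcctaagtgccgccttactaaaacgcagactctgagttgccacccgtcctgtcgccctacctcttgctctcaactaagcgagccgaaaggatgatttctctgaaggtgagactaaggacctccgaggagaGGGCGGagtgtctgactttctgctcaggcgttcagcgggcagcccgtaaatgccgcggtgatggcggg

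Other members also start close to a neighbour on the other strand, of which 3 are given as examples chosen after their values were seen. Idh1 starts 87 bases from Pikfyve, a lipid kinase gene that went from 31.1 to 38.4 CPM (0.30, called) while Idh1 rose by 1.59 on the log2 scale. Etfdh starts 425 bases from 4930579G24Rik, which had 32.3 and 30.1 CPM (−0.10, not called) while Etfdh rose by 0.89. Pex3 starts 279 bases from Adat2, a tRNA deaminase gene with 15.4 and 12.7 CPM (−0.29, FDR of 0.0197, not called), so both genes of that pair had negative values.

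**Figure D4:**
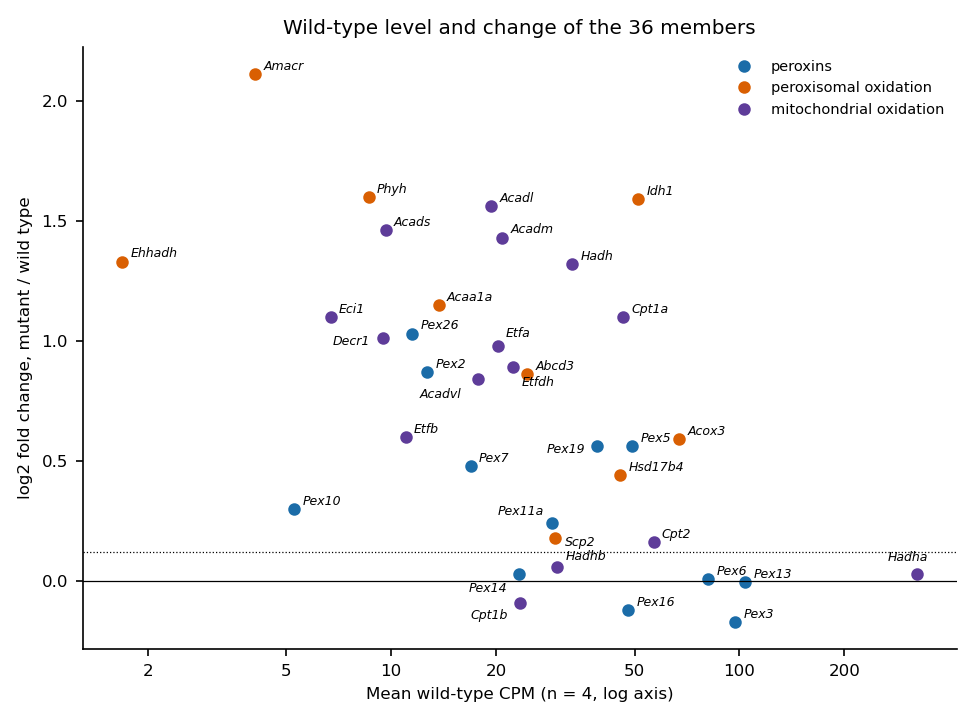
Log2 fold change of each of the 36 genes against its mean wild-type CPM (log axis), coloured by group, with the median of all tested genes at 0.12 (dotted line). Spearman's rho was −0.58 over the 36 genes, and genes near or above 80 CPM in wild types (Pex6, Pex3, Pex13 and Hadha) lie at or below the dotted line.

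Across the 36 genes, those with a lower level in wild types had larger changes. Spearman's rho between wild-type CPM and log2 fold change was −0.58 over the 36 genes (−0.56 with levels per kb of merged exons), and −0.33 over 17126 genes. These are descriptions across genes that share the same 7 libraries, and the wild-type values enter both axes. Idh1 and Cpt1a departed from the pattern: both had over 40 CPM in every wild type and rose by 1.59 and 1.10 on the log2 scale.

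RefSeq promoter windows on GRCm38.p6 were matched by symbol for 30 of the 36 genes (not Pex2, Pex19, Hsd17b4, Amacr, Cpt1b and Decr1). Motifs were searched on both strands. The direct repeat of AGGTCA with 1 base in between is known as the element bound by PPAR with RXR. It was found in 0 of 30 members and in 13 of 27025 genes (0.0481%). At that share, 0 among 30 is not informative. The single hexamer AGGTCA was in 5 of 30 (16.7%), against 18.1% of all genes. The GC box GGGCGG was in 76.7% of members and 38.2% of all genes, and was present in 14 of 20 members called higher and 9 of 10 others. The CCAAT box was in 36.7% of members and 41.1% of all genes, in 10 of 20 members called higher and 1 of 10 others. TGACGT was in 10% against 8.37%, and TATAAA in 10% against 15.7%. These matches describe letters in a window and no binding was measured.

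The 5 AGGTCA matches, the only such hexamers in the 30 windows, are printed with up to 10 bases on each side. Of the 5 genes, 4 were among the 20 members with a window that were called higher, and 1 among the 10 others. Each match is on the strand of its gene, with the hexamer (or its reverse complement TGACCT) in capitals. That of Acadm lies at the upstream edge of its window, at chr3:153944877-153944893, that of Acadvl begins 87 bases before the start at chr11:70015500-70015525, that of Cpt1a 94 before at chr19:3323197-3323222, and that of Scp2 109 before at chr4:108118641-108118666. That of Phyh lies 37 bases after the start at chr2:4919022-4919045.
Acadm: gTGACCTtcgggctccg
Acadvl: ggatcaccctAGGTCAggtagaatac
Cpt1a: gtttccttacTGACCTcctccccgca
Phyh: aagttaagtgTGACCTgggcgcag
Scp2: ctaacacagtAGGTCAaaagaaccca

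The other genes of the same pathways were read from lists chosen by function. Among 14 genes listed for other peroxins and peroxisome division, 7 were called higher and 1 lower, beside 36.3% and 14.2% of all tested genes. Their median was 0.17, and after size factors 4 were called higher and 3 lower (27.0% and 25.1% of all tested genes). The list also holds Miga1 and Miga2, which encode proteins of mitochondria rather than peroxisomes, and both were called higher. Miga2 and Acbd4 had the largest rises (1.24 and 1.21). Pex5l, a relative of Pex5, fell from 79.2 to 64.6 CPM (−0.29).

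Among 35 other peroxisomal enzymes and transporters, 26 were called higher and 1 lower, beside 36.3% and 14.2% of all tested genes. Their median was 0.67, and after size factors 20 were called higher and 2 lower (27.0% and 25.1% of all tested genes). Of the 26, 5 (Nudt7, Abcd4, Pecr, Ephx2 and Paox) reached the minimum level through the mutants only and could not have been found to fall. Without them 21 of 30 were called higher and 1 lower, with a median of 0.55. Nudt7, a peroxisomal CoA hydrolase, had the largest fold change (2.00), from a wild-type mean of 0.658 CPM. Hao2, a hydroxy acid oxidase, rose from 3.32 to 13.0 CPM (1.93) and Gstk1, a glutathione transferase, from 4.87 to 14.9 CPM (1.59). Catalase, which breaks down the peroxide of the oxidases, was picked after its values were seen, and Cat rose from 10.2 to 30.8 CPM (1.59). Crat, the carnitine acetyltransferase, was called lower at −0.39 with 862 and 650 CPM, a call that was lost without wild type 2 (−0.33) or 4 (−0.31) or mutant 2 (−0.36) or 4 (−0.39).

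Plasmalogen synthesis starts in the peroxisome. Of 6 genes listed for it and tested, 2 were called higher and 1 lower, near the 36.3% and 14.2% of all tested genes. Their median was 0.04, and after size factors 2 were called higher and 2 lower (27.0% and 25.1% of all tested genes). The 6 include Pla2g6, a phospholipase rather than an enzyme of the synthesis. Pla2g6 was not called with CPM as deposited and was called lower after size factors (−0.18). Gnpat, the first enzyme, fell from 359 ± 7.59 to 317 ± 6.33 CPM (−0.18), while Agps, the second, rose from 14.1 ± 1.10 to 22.3 ± 1.66 CPM (0.66). Far2, which supplies fatty alcohol, rose by 0.75, a call lost without mutant 2 (0.71, FDR of 0.0102).

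Among 39 other genes of mitochondrial oxidation and acyl-CoA activation, 24 were called higher and 5 lower, beside 36.3% and 14.2% of all tested genes. Their median was 0.60, and after size factors 23 were called higher and 6 lower (27.0% and 25.1% of all tested genes). Without Acot2, which reached the minimum level through the mutants only, 23 of 38 were called higher, with a median of 0.55. Acsbg1, an acyl-CoA synthetase, rose from 166 ± 6.30 CPM (SD, n = 4) to 595 ± 54.2 CPM (SD, n = 3), a log2 fold change of 1.84. Its relative Acsbg2 fell from 346 to 254 CPM (−0.44). Ivd, of leucine breakdown, rose from 39.7 to 110 CPM (1.46). Oxct2a and Oxct2b, testis forms of the transferase that uses ketone bodies, fell from 244 to 153 CPM (−0.68) and from 189 to 129 CPM (−0.55). These are close copies, and how the counting divided their reads is not stated.

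Among 23 genes for uptake, storage and release of fatty acids, 13 were called higher and 4 lower, with a median of 0.61. The shares of all tested genes were 36.3% and 14.2%. G0s2 reached the minimum level through the mutants only and Fabp4 through the wild types only, and without them 12 of 21 were called higher and 4 lower. The binding proteins Fabp3 and Fabp5 rose from 21.2 to 114 CPM (2.43) and from 2.45 to 11.2 CPM (2.16), and the uptake receptor Cd36 from 17.4 to 66.4 CPM (1.98). Dbil5, an acyl-CoA binding protein of the testis, fell from 967 to 600 CPM (−0.69), Fabp12 from 54.8 to 38.4 CPM (−0.51) and the lipase Lipe from 383 to 289 CPM (−0.41). After size factors 12 were called higher and 8 lower, beside 27.0% and 25.1% of all tested genes.

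Of 18 regulators, 8 were called higher and 0 lower by limma, beside 36.3% and 14.2% of all tested genes. Their median was 0.33, and 13 had an unadjusted p under 0.05 by limma, against 66.0% of all tested genes. After size factors 5 were called higher and 1 lower, beside 27.0% and 25.1% of all tested genes. Nr2f2, a nuclear receptor, had the largest rise (3.71 to 10.4 CPM, 1.43), followed by Ppard (3.62 to 6.46 CPM, 0.82). Acaca, which makes malonyl-CoA, the inhibitor of carnitine palmitoyltransferase I, was called higher at 0.81. It had 29.9, 15, 29.6 and 29.5 CPM in the wild types and 41.3, 45 and 45.2 CPM in the mutants. The low value of wild type 2 adds to the size of this rise. The call of Acaca was lost without mutant 2 (0.79, FDR of 0.0117). Ppara, picked after its values were seen, had 5.05 ± 0.547 CPM (SD, n = 4) in wild types and 4.87 ± 0.575 CPM (SD, n = 3) in mutants and was not called.

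**Figure D5:**
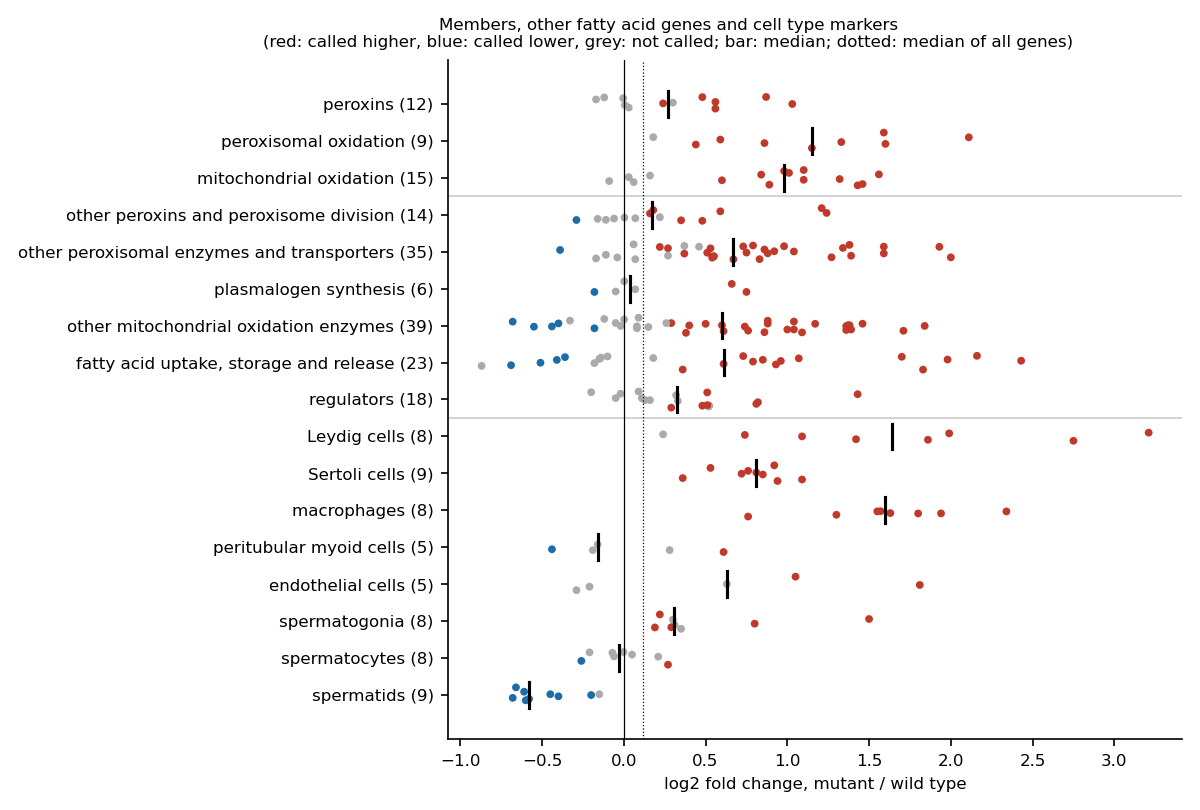
Log2 fold change of mutant against wild type for single genes (points; red called higher, blue called lower, grey not called) in the 3 groups, the other fatty acid lists and the cell type marker lists, with the number of genes in the table in parentheses and list medians as bars. The medians of Leydig cell and macrophage markers (1.64 and 1.6) lie at the right and that of spermatid markers (−0.58) at the left.

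Markers of the cell types of the testis differed in direction. The median log2 fold change was 1.64 for Leydig cell, 1.60 for macrophage, 0.81 for Sertoli cell, 0.63 for endothelial and 0.31 for spermatogonial markers. It was −0.03 for spermatocyte, −0.16 for peritubular myoid and −0.58 for spermatid markers. Of all tested genes, 36.3% were called higher and 14.2% lower, and 27.0% and 25.1% after size factors. Of 8 Leydig cell markers 7 were called higher, and their summed level was 1132 to 1345 CPM in the wild types and 4709 to 4853 CPM in the mutants. Much of that sum was Insl3 (438 and 2941 CPM on average), and the other 7 markers, of which Star was not called, summed to 709 to 920 CPM and 1791 to 1933 CPM. All 9 Sertoli cell markers in the table were called higher (sums of 1259 to 1379 and 2591 to 2721 CPM), and so were all 8 macrophage markers (sums of 85.8 to 94.5 and 257 to 295 CPM), of which Cd14 reached the minimum level through the mutants only. Of 9 spermatid markers 8 were called lower, with sums of 22144 to 23413 and 14179 to 16277 CPM. Among the rest, 5 of 8 spermatogonial markers, 2 of 5 endothelial markers, 1 of 8 spermatocyte markers and 1 of 5 peritubular myoid markers were called higher, and 1 spermatocyte and 1 myoid marker were called lower. After size factors 7 of the 9 Sertoli cell markers were called higher (not Sox9 and Amh) and all 9 spermatid markers lower. On that scale 1 spermatogonial and 0 spermatocyte markers were called higher, and 4 spermatocyte and 1 endothelial markers lower. No marker in the table was at 0 in any library. The part of these cell types in the changes of the 36 genes was not tested.

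For comparison, the summed level of the 12 peroxins was 508 to 523 CPM in the wild types and 572 to 591 CPM in the mutants. The 9 peroxisomal oxidation genes summed to 239 to 257 CPM and 433 to 498 CPM, and the 15 mitochondrial oxidation genes to 629 to 665 CPM and 910 to 961 CPM. Single genes weigh heavily in these sums. Idh1 alone had means of 51.3 CPM in wild types and 155 CPM in mutants, and Hadha had 324 and 330 CPM. The groups of libraries did not overlap in any of the 3 sums.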

How the data were processed

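The authors trimmed reads with Trimmomatic, aligned them with Subread to GRCm39 and counted them with featureCounts, and deposited CPM for genes passing their read minimum. The annotation release and strand setting are not given in the sources used here. Each library's CPM sum to the same total, and 100% of its values are whole multiples of its smallest step (tolerance of 0.01 step), so depth could be read but no between-library factor is included.

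Tests used limma 3.58.1 in R 4.3.3 on log2(CPM + 0.1), for genes that reached 2.2 CPM in 2 libraries of either group, at an FDR of 0.01. On simulated libraries (16517 genes tested) 199 of 200 changed genes were called, with 4 unchanged ones. Only those 200 genes were changed there, by more than the changes of Pex3 and Pex11a. The spread of reads was set alike for all genes. In the data 50.4% of all tested genes were called, so the simulation cannot show how small changes or a general shift are handled. Symbols and coordinates came from GENCODE M39 (99.5% of IDs matched). Python 3.11.15, pandas 2.3.3 and matplotlib 3.10.9 were used otherwise.

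The members and lists were chosen with earlier results of these data known. The named genes are all members, up to 3 called genes with the largest changes in each direction per list, and Iqch. Some genes that this rule names are not reported here. Alternatives were other pseudocounts, minimums and scalings, the replicate number as a block, and each library left out.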

Additional observations from a re-analysis of the deposited data

Results flagged for a closer look

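Of 63 named genes examined for a library far from the others of the wild-type group, 2 were picked out, 1 of them among the 36 members, where chance picks out about 1 in 20. Hadhb had 28.3 CPM in wild type 4, against 30.5 to 30.8 CPM in the other wild types, and without wild type 4 the Hadhb log2 fold change was 0.04. Acaca had 15 CPM in wild type 2, against 29.5 to 29.9 CPM in the other wild types. The cause was not tested in either case.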

How the results depend on the processing

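The count of all genes called (8640) stayed within 1.5 times in each alternative run, and ran from 7237 to 8503 with 1 library left out. Peroxins called lower went from 0 to 1 with a pseudocount of 1, to 2 after size factors, to 2 after TMM factors, and to between 0 and 1 with 1 library left out, where Pex3 was the gene called. The peroxin median went from 0.27 to 0.14 after size factors and 0.12 after TMM factors, and to between 0.21 (without mutant 4) and 0.31 with a library left out. The peroxisomal oxidation median went from 1.15 to 0.99 with a pseudocount of 1, 1.01 with a minimum of 5 CPM (which leaves out members), 1.01 after size factors and 1.00 after TMM factors. The mitochondrial oxidation median went from 0.98 to 0.85 and 0.83 after these factors. These factors lower every log2 fold change by construction, since the mutant factors (1.04 to 1.07) exceed the wild-type ones (0.953 to 0.964).

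The signs of 4 members that were not called turned: after size factors Pex6 was −0.13, Pex14 −0.10, Hadha −0.10 and Hadhb −0.07, and after TMM factors −0.14, −0.12, −0.12 and −0.09. With a library left out, Pex6 ranged from −0.04 to 0.04, Pex13 from −0.04 to 0.03, Pex14 from −0.02 to 0.08 and Hadha from −0.0033 to 0.06. Calls of peroxisomal and mitochondrial oxidation genes ranged from 8 to 8 and 11 to 12.

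With the replicate block, which takes the shared replicate number as a pair, 7722 genes were called, Pex13 turned to 0.03 and Pex11a lost its call (0.27, FDR of 0.0157). The other 34 members kept direction and call. Same-numbered libraries deviated with correlations of 0.026, 0.009 and −0.098, so the numbers were not taken as pairs.

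The planned edgeR and DESeq2 fits on reads recovered from the steps of the CPM were not run. Depth limits only low genes: 3 members had wild-type means under 6 CPM.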
